A study of Saccharomyces cerevisiae with 5 samples.

Results

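The small subunit of the mitochondrial ribosome was followed through 31 nuclear genes listed for its proteins, in budding yeast growing on glycerol with and without the gene RSF2. The genes were picked by name as mitochondrial small-subunit ribosomal proteins. RSM22 alone among them has no ribosomal protein name and is classed as related to methyltransferases. Each of the 31 had 1 probe set of its own on the array, out of 5656 genes with a single-gene probe set, and 29 of them passed the filter on dim genes that left 4243 genes for the test. The mutant strain was Δrsf2, in which RSF2 (YJR127C, also called ZMS1), the gene of a zinc-finger protein, is deleted. It was set against the isogenic parent BY4741, a haploid laboratory strain of mating type a in which HIS3, LEU2, MET17 and URA3 are deleted, a background that both groups share. Both grew in rich medium with glycerol as the only carbon source and were collected at the same optical density. Poly(A) RNA of 2 Δrsf2 and 3 wild-type samples, which the sample titles call biological replicates, was hybridised to 1 Affymetrix array each. The comparison asked how transcript levels during respiratory growth depend on RSF2. How many independent deletion clones were used was not given in the sources used here.

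Mitochondria keep their own ribosomes, which in yeast translate the few mRNAs of the mitochondrial genome, most of them for subunits of the respiratory chain and of ATP synthase. Growth on glycerol needs those subunits, so cells without mitochondrial translation cannot grow on it. The small subunit holds the decoding site, where mRNA meets tRNA. Apart from its RNA and the protein Var1, which mitochondrial DNA encodes, it is built from nuclear-encoded proteins that are made in the cytosol and imported. Some of these belong to families shared with bacterial ribosomes, and others are found in mitochondrial ribosomes only.

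Signals are in arbitrary units, scaled so that the 2% trimmed mean of each array was 500. This step was needed because Δrsf2 replicate 1 had been deposited with a trimmed mean of 100.1, against 500.3 for Δrsf2 replicate 2 and 500.3 to 500.7 over the wild-type arrays. Scaling each array to 1 mean hides any change in total mRNA per cell. RSF2 itself had scaled signals of 9.49 and 3.30 in the Δrsf2 arrays, against 204, 254 and 416 in the wild-type arrays. Both Δrsf2 arrays lay under the floor of 28.1 set for dim signals, so RSF2 was at least 9.90-fold lower in Δrsf2 and all 5 labels matched the genotype. Its limma adjusted p, in the test used below, was 0.133. Of 6 genes that mark cells of mating type a, STE2, STE6, BAR1, MFA1 and MFA2 passed the filter on dim genes and ASG7 did not. Over the 5 arrays MFA1 read 1350 to 5140 and MFA2 1027 to 13184, while STE2, STE6 and BAR1 read 92.0 to 288. STE3, which marks the opposite mating type, lay below the filter too. It had 127 and 126 in the Δrsf2 arrays, against 80.3, 103 and 126 in the wild-type arrays. MFALPHA1 and MFALPHA2, which also mark that type, had no probe set of their own. MFA1 and MFA2 thus lay far above STE3 and the other tested markers nearer to it, so the markers together give no clear check of the mating type. Of the 4 genes deleted in the strain, URA3 lay under the floor in all 5 arrays. MET17 lay under it in 4 and read 62.4 in Δrsf2 replicate 1. LEU2 had 207 and 21.9 in the Δrsf2 arrays, against 30.5, 11.9 and 11.7 in the wild-type arrays. HIS3 had 109.9 and 682 in the Δrsf2 arrays, against 476, 309.9 and 361 in the wild-type arrays. Whether the HIS3 probes lie within the stretch that the strain lacks was not tested. The arrays were also split here into 2 sets by a cut on the scaled CreX spike-in control, and no sample title names such sets. CreX averaged 48446 (Δrsf2 replicate 1) and 52713 (wild-type replicate 1) in the high set. In the low set it averaged 2216 (Δrsf2 replicate 2) and 9326 and 2631 (wild-type replicates 2 and 3). Wild-type replicate 2, at 9326, lay well above the other arrays of the low set. Each set holds both groups. For ACT1 mRNA, read as a sign of RNA quality, the 3′ signal over the 5′ signal was 4.91 and 1.55 on the Δrsf2 arrays and 2.76, 2.28 and 1.69 on the wild-type arrays.

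Most of the small-subunit genes lay lower in Δrsf2 by value, but none passed the test. Of the 29 tested genes, 25 were lower and 4 higher, with a median log2 difference (Δrsf2 minus wild type) of -0.38. Over all 4243 genes 52.3% were lower and the median was -0.026. Limma's moderated test, adjusted over the 4243 genes by Benjamini-Hochberg, called 0 small-subunit genes, and 0 of them had an unadjusted p under 0.05. The share of all genes called was 0%, and 2.29% were lower and 0.943% higher at an unadjusted p under 0.05. The smallest unadjusted limma p among the 29 was 0.0572, for MRPS8, and their adjusted p was 0.9996 throughout. The median standard error of a small-subunit gene was 0.56 on the log2 scale, which is larger than the median difference itself. In 2 genes, MRPS17 and NAM9, both Δrsf2 arrays were below every wild-type array, and in 0 genes above. Over all genes 8.27% were lower and 6.74% higher without overlap. MRPS17 alone was also at least 2-fold lower, against 2.76% of all genes, and 0 were at least 2-fold higher, against 1.77%. With the 2 genes below the filter put back, 25 of 31 were lower and the median was -0.34.

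**Figure D1:**
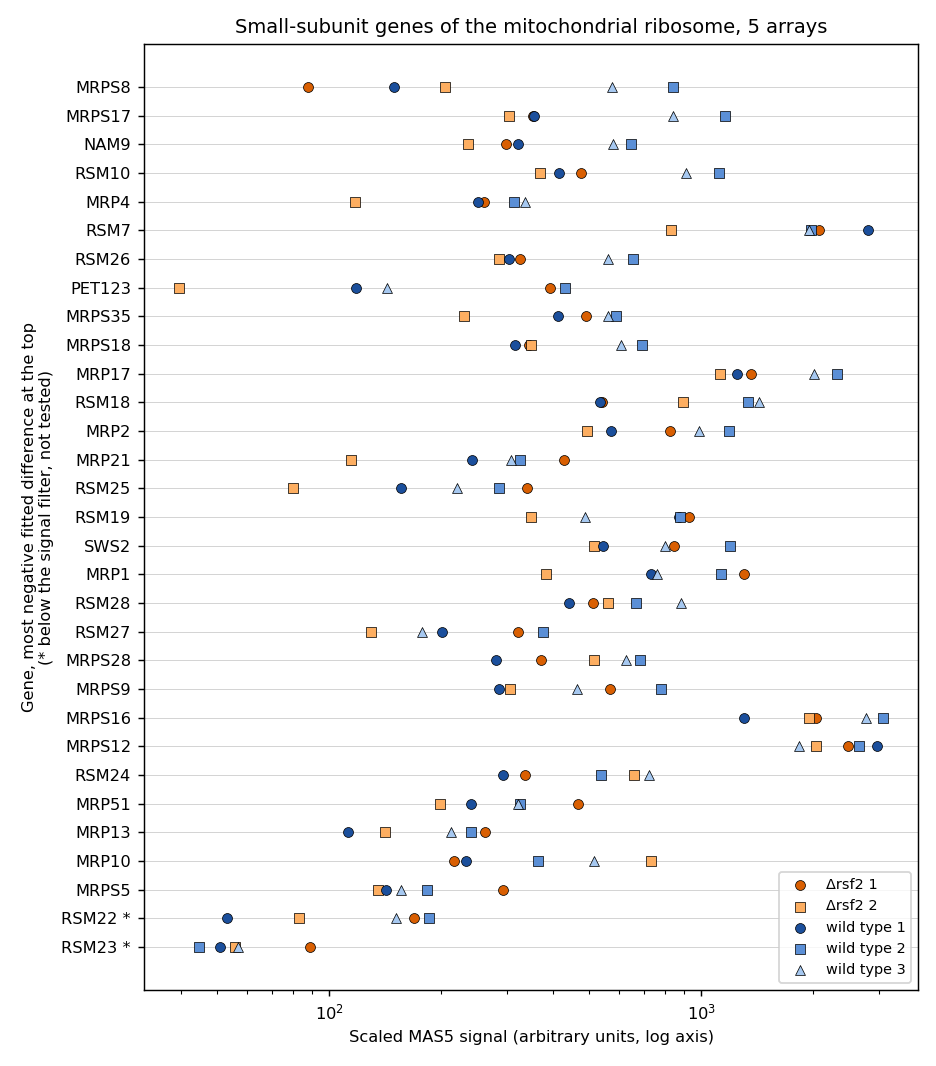
Scaled MAS5 signal (arbitrary units, log axis) of the 31 small-subunit genes, with a symbol for each of the 2 Δrsf2 and 3 wild-type arrays, and genes ordered from the most negative fitted difference at the top; RSM22 and RSM23 were below the filter. In MRPS17 and NAM9 both Δrsf2 symbols lie left of all wild-type symbols, by a narrow margin over wild-type replicate 1, and in the other 27 tested genes the groups overlap.

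The body of the small subunit, as known from bacteria, holds the proteins that bind its RNA early and those around the decoding centre. MRPS8 (YMR158W), a protein of the bacterial S8 family, which binds the central part of the small-subunit RNA, had signals of 87.4 and 204 in the Δrsf2 arrays, against 149, 839.6 and 575 in the wild-type arrays. Both Δrsf2 values were low, but so was wild-type replicate 1, which fell between them. The 87.4 comes from Δrsf2 replicate 1, the array scaled up from a trimmed mean of 100.1. Whether MRPS8 was above background there was not tested. The fitted log2 difference was -1.64 ± 0.77 (SE), 3.11-fold lower, with a 95% confidence interval of -3.33 to 0.059. MRPS17 (YMR188C), of the S17 family, had 353 and 303 in the Δrsf2 arrays, against 354, 1157 and 837 in the wild-type arrays. Wild-type replicate 1 was almost level with the nearer Δrsf2 array, so the groups were separated only just. Its difference was -1.10 ± 0.58 (SE), with an unadjusted limma p of 0.0828 and an adjusted p of 0.9996. NAM9 (YNL137C), of the S4 family, in which changes let the ribosome read through stop codons, had 299 and 236 in the Δrsf2 arrays, against 322, 646 and 579 in the wild-type arrays, and a difference of -0.89 ± 0.55 (SE). In both NAM9 and MRPS17 wild-type replicates 2 and 3 were well above the other 3 arrays.

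The other 3 body proteins had differences smaller than their standard errors. MRPS16, of the S16 family, had a log2 difference of -0.17 ± 0.50 (SE) with signals of 2029.9 and 1949 in the Δrsf2 arrays, against 1302, 3084 and 2774 in the wild-type arrays. Its 2 Δrsf2 values lay within the wild-type range. MRPS12, of the S12 family, which monitors decoding accuracy, had 2486 and 2029.8 in the Δrsf2 arrays, against 2961, 2655 and 1829 in the wild-type arrays. Its difference was -0.11 ± 0.46 (SE), with an interval of -1.12 to 0.89. MRPS5, of the S5 family, was the most positive of the 29, at 0.32 ± 0.59 (SE). It had 292 and 135 in the Δrsf2 arrays, against 142, 183 and 156 in the wild-type arrays, so that the higher mean came from Δrsf2 replicate 1 alone, the other Δrsf2 array being the lowest of the 5.

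The head, which swivels as tRNA and mRNA move through the ribosome, had 6 of 6 genes lower by value, and their median difference was -0.40. Within the spike-in sets, 1 of the 6 was lower in the high set and 6 in the low set, against 39.8% and 55.8% of all genes. RSM10 (YDR041W), of the S10 family, had 473 and 368 in the Δrsf2 arrays, against 414, 1118 and 907 in the wild-type arrays. Here too wild-type replicate 1 lay between the Δrsf2 arrays, and the difference was -0.84 ± 0.54 (SE). RSM7 (YJR113C), of the S7 family, which organises the head around its RNA, had 2076 and 830.0 in the Δrsf2 arrays, against 2802, 1976 and 1951 in the wild-type arrays. Δrsf2 replicate 2 was well below the other 4 arrays, while Δrsf2 replicate 1 was inside the wild-type range. The difference of RSM7 was -0.75 ± 0.50 (SE), and it was -1.41 without Δrsf2 replicate 1 and -0.090 without Δrsf2 replicate 2. The remaining head proteins were MRP2 (S14 family) at -0.46 ± 0.49 (SE), RSM19 (S19 family) at -0.34 ± 0.55, SWS2 (S13 family) at -0.28 ± 0.50 and MRPS9 (S9 family) at -0.17 ± 0.58. In 5 of the 6 head genes Δrsf2 replicate 2 was below every wild-type array, and Δrsf2 replicate 1 was so in 0. Among all genes these shares were 26% for Δrsf2 replicate 2 and 30.3% for replicate 1. RSM19 and MRPS12 are neighbours on the chromosome in the gene table used for names, and their differences of -0.34 and -0.11 were both smaller than their standard errors.

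The platform, the side of the subunit that faces the exit path of the mRNA, had 5 of 5 genes lower by value, and their median difference was -0.54. However, 0 of the 5 were lower in the high spike-in set and 5 in the low set, against 39.8% and 55.8% of all genes. MRPS18 (S11 family) was at -0.56 ± 0.54 (SE), MRP17 (S6 family) at -0.54 ± 0.45, RSM18 (S18 family) at -0.54 ± 0.53, MRP21 (S21 family) at -0.39 ± 0.66 and MRPS28 (S15 family) at -0.18 ± 0.56. MRPS18 had 344 and 347 in the Δrsf2 arrays, against 315, 695 and 607 in the wild-type arrays. Its Δrsf2 arrays almost coincided, yet wild-type replicate 1 was below both. MRP21, in which changes can restore translation of mitochondrial mRNAs with damaged leaders, had 428 and 115 in the Δrsf2 arrays, against 241, 326 and 308 in the wild-type arrays. Its Δrsf2 arrays were the highest and the lowest of the 5 and differed 3.74-fold.

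Among the other members of bacterial families, MRP4 (YHL004W), of the S2 family, had 261 and 117 in the Δrsf2 arrays, against 250.4, 313 and 335 in the wild-type arrays. Only Δrsf2 replicate 2 stood below the wild type, and the difference was -0.77 ± 0.60 (SE). MRP51 (YPL118W), counted here because structural nomenclature lists it as the S1 counterpart, had 465 and 198 in the Δrsf2 arrays, against 239.7, 325 and 322 in the wild-type arrays, and a difference of 0.054 ± 0.59 (SE). Its 2 Δrsf2 values enclosed the wild-type range. Counted together, the 19 members of bacterial families had 17 lower by value, at a median log2 difference of -0.46. By spike-in set, 5 of the 19 were lower in the high set and 19 in the low set, against 39.8% and 55.8% of all genes.

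The proteins found only in mitochondrial ribosomes were lower by value for 8 of 10 tested genes, and their median log2 difference was -0.26. Whether this median differs from that of the bacterial families was not tested. By spike-in set, 1 of the 10 was lower in the high set and 8 in the low set, against 39.8% and 55.8% of all genes. MRP1 and RSM26 are both related to superoxide dismutases in sequence. RSM26 (YJR101W) had 325 and 286 in the Δrsf2 arrays, against 303, 654 and 560.5 in the wild-type arrays. MRP1 (YDR347W) had 1305 and 382 in the Δrsf2 arrays, against 732, 1128 and 758 in the wild-type arrays. The Δrsf2 arrays were close together for RSM26, on either side of wild-type replicate 1, and far apart for MRP1, where they were the highest and the lowest value. The differences were -0.66 ± 0.55 (SE) for RSM26 and -0.28 ± 0.56 for MRP1.

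Several mitochondrion-specific genes were split between the Δrsf2 arrays (PET123 and RSM25, like MRPS12, MRPS16, MRPS18 and MRP21 above, were chosen for values in every array after these were seen). PET123 (YOR158W), which is linked by genetics to the translational activator of COX3 mRNA, had 392 and 39.4 in the Δrsf2 arrays, against 118, 430.3 and 143 in the wild-type arrays. Its Δrsf2 arrays differed 9.94-fold, and its fitted difference of -0.64 ± 0.91 (SE) has an interval of -2.64 to 1.36. RSM25 had 340.1 and 80.0 in the Δrsf2 arrays, against 156, 286 and 220.4 in the wild-type arrays, a 4.25-fold gap between the Δrsf2 arrays. MRP10 (YDL045W-A), a small cysteine-rich protein of the kind that is folded by disulfide formation, went the opposite way from both. It had 217 and 733 in the Δrsf2 arrays, against 233, 364 and 514 in the wild-type arrays, with Δrsf2 replicate 2 the highest of the 5 arrays and Δrsf2 replicate 1 the lowest. MRP10 was therefore at 0.18 ± 0.65 (SE) over both arrays, at 1.06 without Δrsf2 replicate 1 and at -0.70 without Δrsf2 replicate 2. MRP13 had 262 and 141 in the Δrsf2 arrays, against 112, 240.2 and 212 in the wild-type arrays, and a difference of 0.11 ± 0.61 (SE). The rest were MRPS35 at -0.62 ± 0.55, RSM28, a protein in which a change can restore translation of COX2 mRNA, at -0.25 ± 0.49, RSM27 at -0.22 ± 0.64 and RSM24 at -0.043 ± 0.57.

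The genes below the filter were RSM22 and RSM23. RSM22, a protein related to methyltransferases, had 168 and 82.6 in the Δrsf2 arrays, against 52.9, 185 and 151 in the wild-type arrays, and the groups overlapped. RSM23, related to the GTP-binding protein DAP3 of animals, had 88.4 and 55.6 in the Δrsf2 arrays, against 50.7, 44.6 and 56.8 in the wild-type arrays, and Δrsf2 replicate 1 was the highest. No fold change is given for either, since both lay under the 25th percentile of signal.

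The level of these genes also varied between arrays of one genotype. Relative to the wild-type mean of each gene, the small-subunit median stood at -0.090 and -0.75 on the Δrsf2 arrays, and at -0.59, 0.41 and 0.17 on wild-type arrays 1 to 3. Wild-type replicate 1 thus lay closer to Δrsf2 replicate 2 than to the other wild-type arrays, and was the lowest wild-type array in 25 of 29 genes. For all tested genes the medians were -0.079 and 0.020 in Δrsf2 and -0.33, 0.082 and 0.24 in the wild type, so a part of the low level of wild-type replicate 1 was common to all genes under this scaling. In 20 of 29 genes the Δrsf2 arrays were further apart than the groups, and in 26 of 29 the wild-type range was larger than the group difference. On the log2 scale the median SD of a small-subunit gene was 0.63 over Δrsf2 arrays and 0.57 over wild-type arrays, against 0.56 and 0.48 for all genes.

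**Figure D2:**
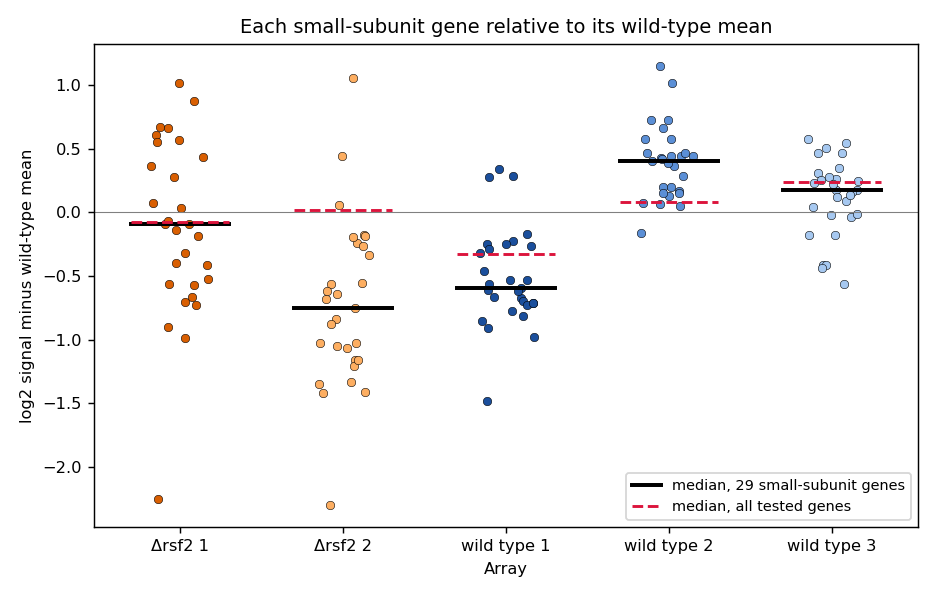
Log2 signal of each of the 29 tested small-subunit genes minus its wild-type mean, by array, with the median of these genes (solid line) and of all 4243 tested genes (dashed line). The small-subunit median lies lowest at -0.75 (Δrsf2 replicate 2) and -0.59 (wild-type replicate 1), while Δrsf2 replicate 1 has a median near that of all genes.

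Scalings that set the arrays to a common middle separated more genes. With quantile normalisation 8 of 29 small-subunit genes were lower without overlap, against 12.7% of all genes, and with arrays centred on their medians 8 of 29, against 10.7%. MRPS8, MRPS17, NAM9, RSM10, RSM26, MRPS18 and RSM28 were in both sets, MRP4 in the first and MRP17 in the second. The number lower by value was 25 of 29 under both, the median was -0.34 and -0.40, and no small-subunit gene had a limma adjusted p under 0.05. Leaving out single arrays moved the count too. Without Δrsf2 replicate 1 it was 18 of 29 lower and 1 higher without overlap, against 25.3% and 28.6% of all genes. Without Δrsf2 replicate 2 it was 4 lower and 7 higher, against 29.9% and 25.5%. Without wild-type replicate 1 it was 14 lower and 0 higher, against 26.4% and 10.1%. In the values as deposited, where Δrsf2 replicate 1 has the lower scale, 18 of 29 were lower without overlap, against 25.5% of all genes.

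Within the 2 spike-in sets of arrays the small-subunit medians went in opposite directions. In the low spike-in set (Δrsf2 replicate 2 against wild-type replicates 2 and 3) 27 of 29 were lower, with a median log2 difference of -0.97, against 55.8% and -0.11 for all genes. MRP10 at 0.76 and RSM24 at 0.078 were the exceptions. In 26 of the 29 Δrsf2 replicate 2 was below both wild-type arrays, against 46.8% of all genes, and in MRP10 it was above both, against 33% of all genes. In the high set (Δrsf2 replicate 1 against wild-type replicate 1) 6 of 29 were lower, with a median of 0.21, against 39.8% and 0.21 for all genes. The direction over all 5 arrays therefore did not hold in the high set, where the small-subunit median was about that of all genes. The 5 genes MRPS8, RSM7, MRPS12, NAM9 and MRPS17 were lower in both sets, a share of the 29 near the 19.8% of all genes. They belong to bacterial families, as do 19 of the 29. Of these, MRPS8 was at -0.77 in the high set and -1.77 in the low set, and RSM7 at -0.43 and -1.24, whereas MRPS17 was level in the high set (-0.0042). PET123 had the widest gap between the sets, at 1.73 in the high set and -2.66 in the low set. Across the 29 genes the differences in the 2 sets, which share no array, had a Pearson r of -0.21 and a Spearman rho of -0.0074, given as a description.

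**Figure D3:**
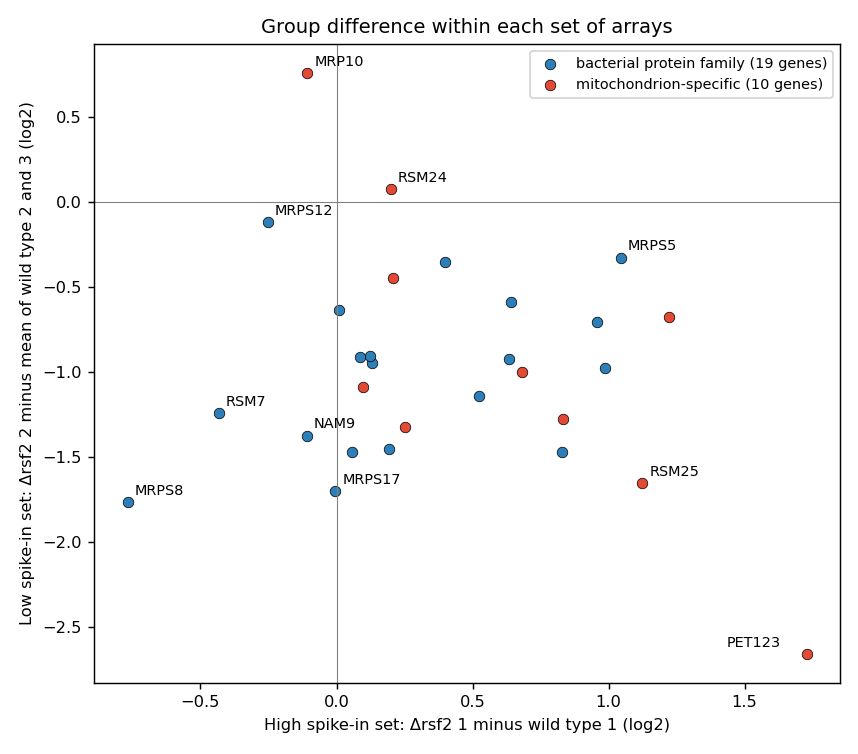
Log2 difference of each of the 29 tested small-subunit genes in the high spike-in set (x axis, Δrsf2 replicate 1 minus wild-type replicate 1) and in the low set (y axis, Δrsf2 replicate 2 minus the mean of wild-type replicates 2 and 3), coloured by protein family. All but MRP10 and RSM24 lie below 0 on the y axis, and all but 6 lie right of 0 on the x axis, with PET123 at the lower right.

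Limma called 9 small-subunit genes lower at an adjusted p under 0.05 in the low set alone, where the single Δrsf2 array is assumed to vary like the pair of wild-type arrays, against 6.15% of all genes lower and 4.27% higher. They were PET123 at -2.66 ± 0.57 (SE, adjusted p = 0.00237), MRPS17 at -1.70 ± 0.41 (adjusted p = 0.00658) and MRPS8 at -1.77 ± 0.44 (adjusted p = 0.00897), followed by RSM10, RSM7, RSM25, NAM9, MRP1 and MRP4 with adjusted p-values of 0.0172 to 0.0496. Over the other alternatives the limma adjusted p of these 9 genes ran from 0.18 to 1. In the high set 5 of these 9 were above 0, among them RSM25 at 1.12 and MRP1 at 0.83. That set has 1 array a group and allows no test. The part of spike-in level and RNA quality in these differences was not tested.

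The large subunit of the mitochondrial ribosome was also mostly lower by value. Of 44 large-subunit genes 38 were lower, their median log2 difference being -0.50, and 10 of 44 were lower without overlap, against 8.27% of all genes. At an unadjusted limma p under 0.05, 3 of 44 were lower, against 2.29% of all genes. They were MRPL49 at -1.24 ± 0.52 (SE), MRPL23 at -1.15 ± 0.49 and MRPL20 at -1.06 ± 0.47, with unadjusted limma p-values of 0.0342 to 0.045 and adjusted ones of 0.9996. The large-subunit medians by array were -0.19 and -0.75 in Δrsf2 and -0.43, 0.28 and 0.18 in the wild type, in the same order as the small-subunit ones. Within the high and low sets they were 0.090 and -0.89. A difference between the 2 subunits was not tested.

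Of 4 further small-subunit genes, QRI5 was at -0.063 ± 0.51 (SE), FYV4 at -0.52 ± 0.58 and EHD3 at -0.34 ± 0.49, and all 3 overlapped between groups. VAR1, the small-subunit gene in mitochondrial DNA, had 2 probe sets that lay under the floor in each array but Δrsf2 replicate 1, where they read 151 and 55.9. These were 30.3 and 11.2 as deposited, before that array was scaled up, so VAR1 was not taken as detected there. The same caution holds for MRPS8 and RSM23, which read 87.4 and 88.4 on that array after scaling, below the 151 of VAR1. Of 11 genes for translation factors and assembly of the small subunit, RSM22 among them, 5 were tested, and 4 of them were lower by value, with TUF1, the elongation factor that brings tRNA to the ribosome, at -1.02 ± 0.52 (SE) and 565 and 778 in the Δrsf2 arrays, against 717, 2051 and 1638 in the wild-type arrays. MEF2, a factor of ribosome recycling, was at -0.58 ± 0.54 and MEF1, the elongation factor of translocation, at -0.17 ± 0.65. As in MRPS8 and RSM10, wild-type replicate 1 lay between the Δrsf2 arrays for TUF1. The medians of the 5 by array were 0.10 and -0.46 in Δrsf2 and -0.74, 0.55 and 0.19 in the wild type, so that wild-type replicate 1 was the lowest, whereas Δrsf2 replicate 2 was the lowest for both mitochondrial subunits. Within the high and low sets their medians were 0.84 and -0.92.

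The small subunit of the cytosolic ribosome, which is encoded by other genes, lay the other way by value. Of 56 listed genes, 33 had a single-gene probe set, and all 33 were tested. Of the 33, 25 were higher and 8 lower in Δrsf2, with a median log2 difference of 0.23, and 0 passed the limma test. Its medians by array were 0.98 and -0.43 in Δrsf2 and 0.86, -0.17 and -0.68 in the wild type. Its level was thus high on the 2 arrays of the high set and low on the other 3, and the difference within those sets was 0.029 and -0.11. The gene of smallest p was RPS7A at 1.32 ± 0.96 (SE), followed by RPS26B at 1.39 ± 1.17. RPS26B had 42626 and 1179 in the Δrsf2 arrays, against 5288, 2929 and 1266 in the wild-type arrays. RPS7A had 37411 and 7053, against 17318, 4862 and 3291. For both genes Δrsf2 replicate 1 was far above Δrsf2 replicate 2. RPS7B, the paralog of RPS7A, was at 0.64 ± 0.63. Binding of the RPS7A or RPS7B probe set to the transcript of the other was not tested.

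**Figure D4:**
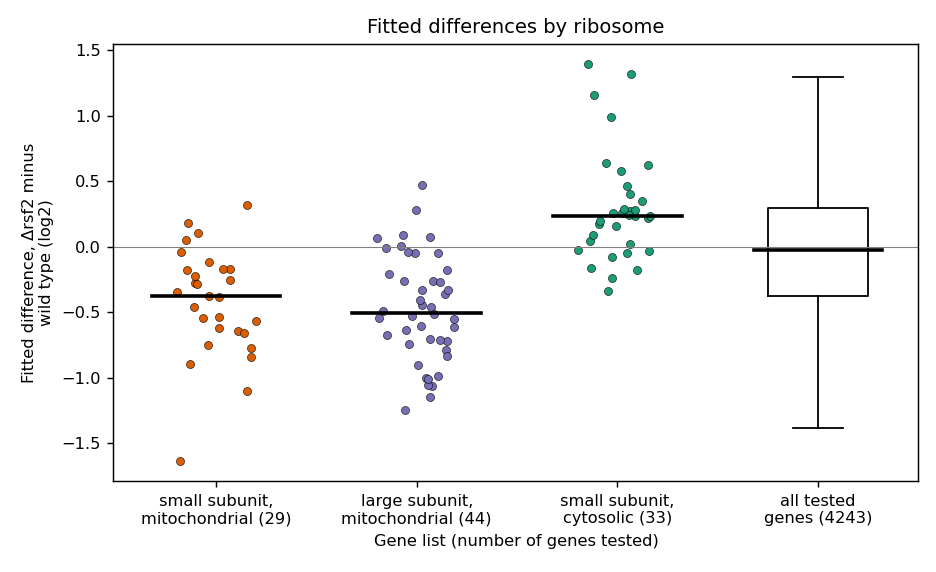
Fitted log2 difference (Δrsf2 minus wild type) of each tested gene of the mitochondrial small and large subunits and of the cytosolic small subunit, with the median as a line, beside a box plot of all 4243 tested genes (box, quartiles; whiskers, the furthest values within 1.5 box lengths). Medians are -0.38, -0.50, 0.23 and -0.026 from left to right.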

How the data were processed

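The authors deposited 1 linear intensity for each probe set and array, computed by MAS5 according to the submitters' processing notes. Its version and settings are not given in the sources used here. Groups were taken from sample titles. Arrays were scaled to a 2% trimmed mean of 500, a floor was set at the 10th percentile of the 6504 single-gene probe sets (28.1), and log2 was taken. Genes came from the platform annotation, named through the R64 gene table. The probe set with the highest mean stood for a gene, and genes under the 25th percentile of mean log2 signal (a signal of 129) were left out, except RSF2. All 5 arrays were fitted with limma 3.58.1 in R 4.3.3 (lmFit, eBayes with trend, group as the only term, two-sided, Benjamini-Hochberg over 4243 genes). Simulated data with noise independent between genes and arrays were used only to check that the fit recovers added differences. That check does not cover error rates on the real arrays, where many genes shifted together. Fitted differences carry their SE. The spike-in sets come from 2 CreX probe sets. The members, lists, sets and alternatives were chosen with earlier results of these data known. Values in every array are given for genes without overlap, the 6 most negative and 4 most positive differences, and MRP1 and RSM26; the other genes with such values were chosen after these were seen. In each other list up to 3 genes of smallest p were named. Alternatives covered scaling, floor, filter, probe sets, array weights, trend, blocks and leaving out each array.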

Additional observations from a re-analysis of the deposited data

How the results depend on the processing

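The number of arrays, 2 and 3, limits the precision. Some of the 19 alternative settings could not change the fitted difference of a small-subunit gene. They were those on the floor, the trend, the mean of probe sets and the filter. Within that limit, the median of the small-subunit genes kept its sign in 18 of the 19. It moved to -1.54 with signals left as deposited (all genes, -1.19) and to -0.97 in the low spike-in set alone, and turned to 0.21 in the high set alone; leaving out 1 array each gave -0.75 to -0.090. The large-subunit median was -1.67, -0.89 and 0.090 in these 3 settings and -0.75 to -0.19 with 1 array left out. The number of small-subunit genes with a limma adjusted p under 0.05 was 9 in the low set alone and 0 in the other settings with a test. The number lower without overlap was 8 with quantile normalisation (12.7% of all genes) and 8 with arrays centred on medians (10.7%). It was 18 in the values as deposited (25.5%), 26 in the low set alone (46.8%) and 2 to 18 with 1 array left out. Without Δrsf2 replicate 1, Δrsf2 replicate 2 or wild-type replicate 1 the share of all genes was 25.3%, 29.9% and 26.4%. The number higher without overlap was 1 in the low set alone (33% of all genes) and 0 to 7 with 1 array left out. Without those same arrays, in the same order, the share of all genes was 28.6%, 25.5% and 10.1%. RSF2 had a limma adjusted p of 0.133 (log2 difference -3.31), which was under 0.05 without a floor (-5.63), with the stricter filter (-3.31), in the low set alone (-3.53) and without Δrsf2 replicate 1 or 2; with 1 array left out the difference was -3.49 to -3.08, and adjusted p-values over the alternatives ran from 2.99e-05 to 0.885. Replicate numbers 1 and 2 occur in both groups, and the deviations of same-numbered arrays had correlations of 0.27 and -0.09. These are not separate checks, because the deviations of the 2 Δrsf2 arrays mirror each other. The arrays numbered 1 are also those of the high spike-in set. The numbers were not taken as pairs in the main fit. With a replicate block the small-subunit median was -0.36, the large-subunit median -0.43 and RSF2 -3.02, with 0 small-subunit genes called. None of the causes of these changes was tested.

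Of 542 values of single small-subunit genes in alternative settings, 474 kept their direction and side of the threshold, 9 passed it (those of the low set) and 59 changed sign. Dropping the floor or the trend, averaging probe sets and changing the filter left the fitted differences of these genes unchanged by construction. Part of the 474 was therefore fixed beforehand and is no sign of stability. In the high spike-in set alone the log2 difference of MRP1 was 0.83, MRP2 was 0.52, MRP4 was 0.058, MRP10 was -0.11, MRP17 was 0.13, MRP21 was 0.83, MRPS9 was 0.99, MRPS16 was 0.64, MRPS18 was 0.12, MRPS28 was 0.40, MRPS35 was 0.25, RSM10 was 0.19, RSM18 was 0.011, RSM19 was 0.086, RSM24 was 0.20, RSM25 was 1.12, RSM26 was 0.10, RSM27 was 0.68, RSM28 was 0.21, PET123 was 1.73 and SWS2 was 0.64. In the values as deposited the log2 difference of MRP10 was -0.98, MRP13 was -1.05, MRP51 was -1.11 and MRPS5 was -0.84. With array weights the log2 difference of MRP13 was -0.24 and MRP51 was -0.077. With spike-in set as the block the log2 difference of RSM24 was 0.13. In the low spike-in set alone the log2 difference of MRP13 was -0.67, MRP51 was -0.71, MRPS5 was -0.33 and RSM24 was 0.078. With the replicate block the log2 difference of RSM24 was 0.25. Over the fits that left out 1 array each, the difference ran from -1.16 to 0.61 for MRP1, -0.70 to 1.06 for MRP10, -0.34 to 0.55 for MRP13, -1.34 to 0.57 for MRP21, -0.56 to 0.67 for MRP51, -0.24 to 0.87 for MRPS5, -0.62 to 0.28 for MRPS9 and -0.32 to 0.032 for MRPS12. It ran from -0.56 to 0.066 for MRPS16, -0.59 to 0.056 for MRPS28, -1.05 to 0.36 for RSM19, -0.53 to 0.44 for RSM24, -1.42 to 0.67 for RSM25, -0.87 to 0.43 for RSM27, -2.30 to 1.01 for PET123 and -0.64 to 0.072 for SWS2. PET123 fell below the filter without wild-type replicate 2, so its range covers the other 4 fits.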
